A study of Arabidopsis thaliana with 24 samples.

Results

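The comparison of vcs-6 with wild-type seedlings of Arabidopsis thaliana was taken from the deposited table by its column headings: 3 normalized count columns headed vcs6 against the 3 columns WT_4, WT_5 and WT_6, that is 6 of the 24 libraries of the series. The libraries labelled vcs-6 come from seedlings with a mutant allele of VARICOSE (VCS, AT3G13300). The labels describe neither the lesion, nor the number of lines behind the name, nor how mutant seedlings were picked. The wild type (WT) is the Col-0 accession, which is also the background of the mutant, and no transgene or treatment is named for either group. Both groups were whole seedlings grown on plates for 14 days and carry batch numbers 4 to 6 in the labels. A line that overexpresses a GFP fusion of the endonuclease DNE1 with the D153N substitution from the cauliflower mosaic virus 35S promoter, set against its own WT of batches 7 to 9, is used below only for values beside those of vcs-6; the pair shares no library with the vcs-6 comparison. The deposited vcs-6 columns carry no batch, so they are called libraries 1, 2 and 3 in column order, which names them and pairs them with nothing, and the WT libraries are called 4, 5 and 6.

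Eukaryotic mRNAs are protected at their 5′ end by a cap, and removal of the cap commits a transcript to 5′ to 3′ degradation. In plants the decapping enzyme DCP2 and its activator DCP1 are held together by VCS, the counterpart of animal EDC4, and the exposed 5′ end is then taken by the exonuclease XRN4 in the cytoplasm. Loss of VCS is known to disturb leaf vein patterning and to arrest seedling growth, and Col-0 is known to carry an inactive allele of SOV, the 3′ to 5′ exonuclease of a parallel decay route.

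Steady-state mRNA differed across much of the detected transcriptome. Of 21351 genes tested, 10988 passed (51.5%), 5696 higher (26.7%) and 5292 lower (24.8%) in vcs-6, and 2880 (13.5%) were higher and 2415 (11.3%) lower by at least 2-fold. The largest changes included a rise of the plant natriuretic peptide gene PNP-A and falls of the protochlorophyllide oxidoreductase gene PORA and of a cluster of lipid-transfer protein genes. All 3 vcs-6 libraries lay on the same side of all 3 WT libraries for 13211 genes (61.9%). Most list members named below were chosen for large called changes, so separate groups in them describe the values and are no further support. A gene is said to have risen or fallen where limma's Benjamini-Hochberg adjusted p over all genes tested is under 0.05. Levels are normalized read counts in each library, given as libraries 1, 2 and 3 of vcs-6 and then 4, 5 and 6 of WT, and log2 changes are vcs-6 over WT ± SE with 3 libraries in each group, on log2 of the normalized count plus 1, a scale that understates the change of weakly expressed genes. The median log2 change over all genes was 0.0028, and a share of members close to 26.7% higher or 24.8% lower is the level of all genes. In the D153N line 3365 of 21124 genes were called (15.9%), 1920 higher (9.09%) and 1445 lower (6.84%), a count that ran from 756 to 4139 when single libraries of that pair were left out. Each D153N library shares a batch number with 1 of its WT libraries, and with that number as a replicate block 2125 genes were called, 1365 higher and 760 lower. The vcs-6 change differed from the D153N change for 6509 of 21805 genes (29.9%), 3306 with the vcs-6 change higher (15.2%) and 3203 with it lower (14.7%).

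Depth was alike in the groups, with 34405700 to 45565251 recovered reads in vcs-6 and 35538094 to 43674804 in WT. The 100 most abundant genes took 21.5% to 23.2% of the reads in vcs-6 and 29.3% to 33.6% in WT. The labelled tissue, whole seedling, was checked against marker lists. Summed normalized counts of 4 shoot and leaf markers were 538617 to 733725 in vcs-6 and 1379220 to 1726970 in WT, and 8 root markers summed to 6555 to 8721 in vcs-6 and 6158 to 7357 in WT. Guard cell markers (369 to 453 in vcs-6, 1346 to 1541 in WT) and trichome markers (41.8 to 52.8 in vcs-6, 755 to 847 in WT) fell for 4 of 4 and 3 of 3 genes. Seed or embryo markers summed to 1567 to 5559 in vcs-6 and 524 to 922 in WT, and rose for 5 of 5 genes. No marker of shoot or root was at 0 in any library. From bulk RNA, fewer cells of a type and less RNA per cell cannot be told apart, here and in every result below. WT library 5 stood apart from the other WT libraries: across genes its log2 values correlated at 0.966 and 0.965 with theirs, against 0.985 between those. The rapid touch and wound genes moved with it: ZAT10, a zinc-finger repressor induced within minutes of stress, was at 7716, 8414 and 798 in vcs-6, against 1459, 22898 and 1005 in WT, so both groups hold a high and a low library. In the touch and wound list 3 of 16 tested members rose and 1 fell (median log2 change -0.30), with a median of opposite sign without WT library 5, and no direction is read from it. Other lists below also had high summed normalized counts in WT library 5. WT libraries 4, 5 and 6 summed to 37750, 92052.5 and 39247.2 for WRKY factors and 43093, 89722.2 and 43303.5 for AP2/ERF factors. For the camalexin and pattern response list they summed to 21977, 66400 and 20396.

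The decay machinery itself changed in part. Of the decapping factors, 7 of 21 tested members rose and 2 fell (median log2 change 0.02). VCS was at 7782, 7719 and 8844 in vcs-6, against 5745, 4604 and 5497 in WT (log2 change 0.62 ± 0.12, adjusted p = 0.0041). It was thus higher in each library labelled vcs-6, and reads counted over a whole gene do not show whether the transcript is intact; in the D153N line VCS fell by 0.51 on the log2 scale (difference adjusted p = 0.00024). VARICOSE-RELATED (VCR), the neighbouring gene of the same family, was at 859, 852 and 831 in vcs-6, against 1342, 1216 and 1045 in WT (log2 change -0.49 ± 0.12, adjusted p = 0.01), a fall that did not pass once each library's trend on transcript length was removed. The catalytic subunit gene DCP2 was at 469, 470.1 and 625 in vcs-6, against 653, 596 and 590.0 in WT (log2 change -0.24 ± 0.15, adjusted p = 0.19); without vcs-6 library 3 it passed, at -0.38. DCP1, the activator, was at 2308, 2363 and 3036 in vcs-6, against 2661, 2475 and 2803 in WT (log2 change -0.05 ± 0.13, adjusted p = 0.76). XRN4, the exonuclease, was at 3433, 3456 and 3714 in vcs-6, against 3845, 3437 and 3565 in WT (log2 change -0.03 ± 0.10, adjusted p = 0.80), or 0.25 and past the test with the length trend removed. All 3 overlapped between the groups, as did the RNA-binding activators DCP5 and PAT1. The DNE1 gene was at 983, 905 and 833 in vcs-6, against 908, 903 and 860.4 in WT (adjusted p = 0.87).

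Subunits of the Lsm ring, which binds the shortened 3′ end of a transcript and activates decapping, were 6 of the 7 members that rose. LSM3A, which serves both the cytoplasmic and the nuclear ring, was at 2771, 2053 and 2450 in vcs-6, against 942, 1192 and 1027 in WT (log2 change 1.2 ± 0.15, adjusted p = 0.0004). LSM1B, a subunit of the cytoplasmic ring only, was at 421, 338 and 377 in vcs-6, against 217, 251 and 229 in WT (log2 change 0.70 ± 0.14, adjusted p = 0.0045). Neither gene had overlapping groups. Both also rose in the D153N line, LSM3A by 0.82 and LSM1B by 0.95 on the log2 scale, and the differences between the lines did not pass (adjusted p = 0.15 for LSM3A and adjusted p = 0.28 for LSM1B). LSM3B, LSM4, LSM6A and LSM7 also rose, with log2 changes from 0.42 to 0.79, but overlap other genes and are uncertain; LSM7 did not pass with the length trend removed. LSM transcripts are short, and the dependence on transcript length is given further on.

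**Figure D1:**
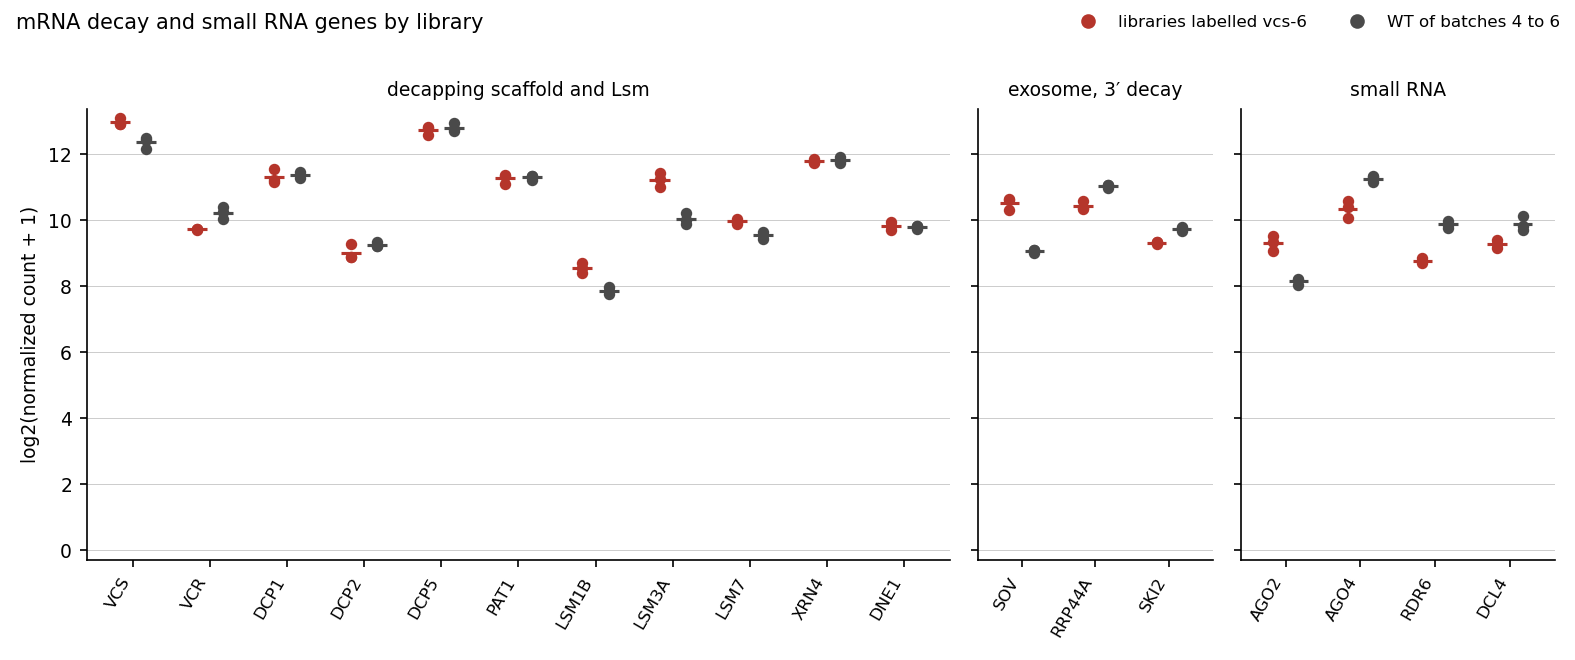
log2 of the normalized count plus 1 for genes of decapping, other mRNA decay and small RNA pathways, with the vcs-6 libraries left of the WT libraries; each point is a library and each bar the mean of 3. VCS, LSM1B, LSM3A, SOV and AGO2 lie higher in all 3 vcs-6 libraries, RDR6 and AGO4 lie lower, and DCP1, DCP2, DCP5, PAT1, XRN4 and DNE1 overlap.

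Other decay routes changed at few points. Among deadenylases, exosome subunits and surveillance factors, 3 of 25 tested members rose and 2 fell (median log2 change -0.14), under 26.7% and 24.8%. SOV was at 1262, 1562 and 1615 in vcs-6, against 547, 518 and 551 in WT (log2 change 1.45 ± 0.13, adjusted p = 9.4e-05), a rise that was larger than in the D153N line (0.71, difference adjusted p = 0.025). Each vcs-6 library lay well above every WT library. Of the small RNA genes, 2 of 18 tested members rose and 5 fell (median log2 change -0.22). AGO2, an antiviral Argonaute, was at 541, 649 and 732 in vcs-6, against 293, 263 and 295 in WT (log2 change 1.16 ± 0.15, adjusted p = 0.00047). RDR6, the RNA-dependent RNA polymerase that turns cleaved or aberrant transcripts into double-stranded RNA, was at 415, 459 and 436 in vcs-6, against 1010, 874 and 934 in WT (log2 change -1.10 ± 0.11, adjusted p = 0.00018), and fell in the D153N line too (-0.78, difference adjusted p = 0.12). AGO4, which acts in RNA-directed DNA methylation, was at 1078, 1357 and 1522 in vcs-6, against 2271, 2600 and 2519 in WT (log2 change -0.91 ± 0.14, adjusted p = 0.0014). None of these 3 genes had overlapping groups. With the length trend removed the median of the small RNA list turned to 0.13, with 4 members higher and 3 lower.

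The largest rises included genes of several kinds. PNP-A, a secreted expansin-like peptide, was at 1561, 683 and 1752 in vcs-6, against 4.89, 2.16 and 5.88 in WT (log2 change 7.93 ± 0.43, adjusted p = 1.8e-05), and rose in the D153N line by 2.69 (difference adjusted p = 0.00023). PR2, a defence beta-1,3-glucanase, was at 7404, 3137 and 10717 in vcs-6, against 93.8, 23.7 and 25.9 in WT (log2 change 7.30 ± 0.60, adjusted p = 7.9e-05). AT5G24200, annotated as an alpha/beta hydrolase, was at 1660, 691 and 1446 in vcs-6, against 8.80, 8.63 and 8.23 in WT (log2 change 6.95 ± 0.32, adjusted p = 1.1e-05). Groups that do not overlap were a condition for the choice of these genes. In each of them library 2 was the lowest of vcs-6. HSP21, the chloroplast small heat shock protein, was at 267, 337 and 332 in vcs-6, against 0.977, 1.08 and 1.18 in WT (adjusted p = 6.5e-06); its WT values stand for 1 read per library, so no fold is given. PR1, the marker gene of salicylic acid defence, was at 154, 84.5 and 311 in vcs-6, against 0.977, 0 and 0 in WT (adjusted p = 6.5e-05), with 1 read in all of WT. In all, 24 genes had at most 3 reads in every WT library and at least 50 normalized counts in every vcs-6 library, among them NAC071, the kinase gene CRK7 and the F-box genes AT5G44940 and AT1G05080. MT2B, a metallothionein, was among the 10 most abundant genes with a 2-fold change, at 397528, 313439 and 337083 in vcs-6, against 42028, 39263 and 40498 in WT (log2 change 3.10 ± 0.17, adjusted p = 1.9e-05). Per kilobase of transcript MT2B averaged 611821 in vcs-6 and 71097 in WT, whereas the antenna gene LHCB5 averaged 59073 in vcs-6 and 300572 in WT.

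The largest falls were led by a run of lipid-transfer family genes with neighbouring locus numbers. AT4G22490 was at 71.5, 119 and 69.0 in vcs-6, against 5891, 4725 and 9762 in WT (log2 change -6.26 ± 0.30, adjusted p = 1.2e-05), and its change was larger than that of the D153N line (-0.54, difference adjusted p = 9.1e-06). AT4G22485, AT4G22505, AT4G22513, AT4G22517 and AT4G22520 fell by 5.92 to 6.70 on the log2 scale, but share sequence with one another and are uncertain. AT3G16670, of the Ole e 1 and extensin family, was at 22, 24.95 and 8.75 in vcs-6, against 2057, 1705 and 1847 in WT (log2 change -6.70 ± 0.35, adjusted p = 1.5e-05). AT3G05727, annotated in a family of pollen coat proteins, was at 38.5, 55.5 and 15.6 in vcs-6, against 2560, 2080 and 3721 in WT (log2 change -6.34 ± 0.43, adjusted p = 4.1e-05). The genes with the largest falls were likewise chosen among those whose groups do not overlap. DOT3, of the NPH3 family and known for vein pattern defects when mutated, was at 8.80, 4.83 and 6.81 in vcs-6, against 557, 344 and 323 in WT (log2 change -5.70 ± 0.30, adjusted p = 1.6e-05). AT3G21950, annotated as a methyltransferase, was at 3.30, 14.5 and 10.7 in vcs-6, against 539, 555 and 510.1 in WT (log2 change -5.86 ± 0.44, adjusted p = 5.8e-05), while it rose in the D153N line by 0.75. AT4G35810, annotated as a 2-oxoglutarate-dependent oxygenase, had no read in vcs-6 and was at 58.6, 26.97 and 81.1 in WT (adjusted p = 0.0001). The reverse pattern, at most 3 reads in every vcs-6 library and at least 50 normalized counts in every WT library, held for 5 genes.

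**Figure D2:**
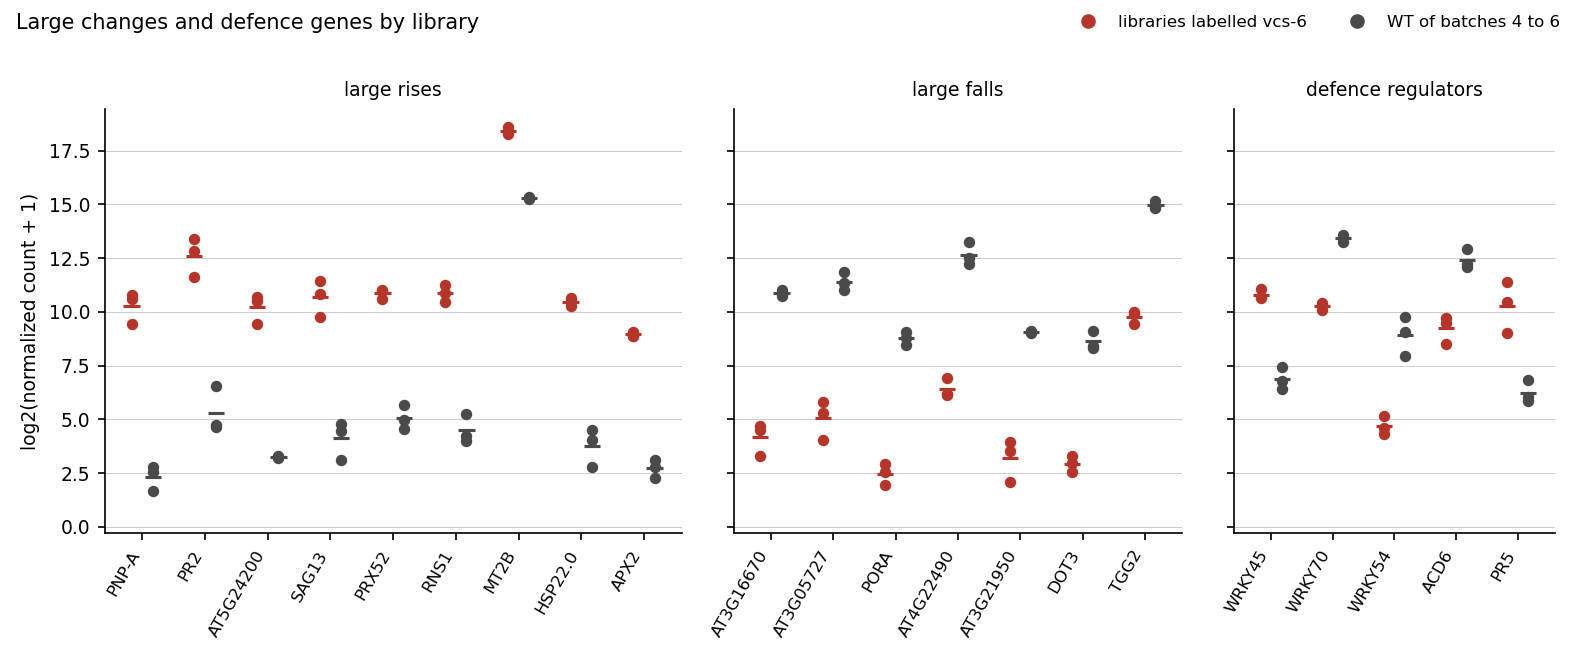
log2 of the normalized count plus 1 for genes with large changes and for defence genes, with the vcs-6 libraries left of the WT libraries; each point is a library and each bar the mean of 3. PNP-A and PR2 lie highest above their WT values, PORA, AT4G22490 and DOT3 lie far below theirs, and no gene shown has overlapping groups.

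Genes of the chloroplast fell together. Of nuclear genes for photosystem, antenna and Rubisco subunits, 0 of 48 tested members rose and 47 fell (median log2 change -1.69). Of genes for chlorophyll synthesis, 0 of 18 tested members rose and 18 fell (median log2 change -1.30), against 24.8% lower among all genes. PORA was at 6.60, 4.83 and 2.92 in vcs-6, against 447, 355 and 541 in WT (log2 change -6.31 ± 0.31, adjusted p = 1.2e-05). HEMA1, which makes the first committed intermediate of tetrapyrroles, was at 1920, 1437 and 1498 in vcs-6, against 5476, 6008 and 3264 in WT (log2 change -1.57 ± 0.24, adjusted p = 0.0011). The 3 vcs-6 libraries of both genes lay under every WT library. LHCB5, a monomeric antenna protein of photosystem II, was at 90338, 70250 and 85569 in vcs-6, against 466676, 375196 and 410612 in WT (log2 change -2.35 ± 0.20, adjusted p = 9.4e-05), and PSAF, a photosystem I subunit, was at 107759, 68538 and 106279 in vcs-6, against 437203, 316021 and 391943 in WT (log2 change -2.04 ± 0.25, adjusted p = 0.00046). Both falls exceeded those of the D153N line (difference adjusted p = 0.00077 and adjusted p = 0.0068). In the Calvin cycle and photorespiration, 0 of 16 tested members rose and 10 fell (median log2 change -0.73). SBPASE, a regulated phosphatase of the cycle, was at 7437, 8982 and 10931 in vcs-6, against 21163, 20980 and 20171 in WT (log2 change -1.21 ± 0.15, adjusted p = 0.00049). Changes differed from the D153N line for 35 of the photosystem genes, 14 of the chlorophyll genes and 10 of the Calvin cycle genes, each time with the vcs-6 change lower.

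Genes for plastid transcription and for organelle ribosomal proteins fell more often than they rose. For the plastid transcription genes, 0 of 14 tested members rose and 12 fell (median log2 change -0.76). The sigma factor gene SIG6 was at 1184, 1283 and 1337 in vcs-6, against 2774, 2633 and 2555 in WT (log2 change -1.07 ± 0.10, adjusted p = 0.00012). Of nuclear genes for organelle ribosomal proteins, 7 of 46 tested members rose and 26 fell (median log2 change -0.73), and 29 of 46 had a lower change than in the D153N line. RPL27, of the large subunit of the plastid ribosome, was at 3359, 3673 and 4055 in vcs-6, against 10117, 10223 and 11053 in WT (log2 change -1.50 ± 0.11, adjusted p = 5e-05). AT5G46160, annotated as a member of the ribosomal protein L14p/L23e family, rose, at 1975, 1590 and 1792 in vcs-6, against 534, 644 and 635 in WT (log2 change 1.56 ± 0.13, adjusted p = 8e-05). The list of organelle ribosomal proteins was not split by organelle.

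Transcripts encoded in the organelles were a small part of these libraries. Plastid-encoded genes held 0.049% to 0.135% of reads in vcs-6 and 0.134% to 0.164% in WT. Of these genes 0 of 76 tested members rose and 36 fell (median log2 change -0.92), and 23 were lower without WT library 4. ATCG00530, which encodes an envelope membrane protein, was at 353, 269.7 and 233 in vcs-6, against 1860, 1616 and 1385 in WT (log2 change -2.51 ± 0.18, adjusted p = 5e-05). Mitochondria-encoded genes held 0.036% to 0.092% of reads in vcs-6 and 0.016% to 0.031% in WT, and 5 of 25 tested members rose and 0 fell (median log2 change 0.28), a count of 3 to 9 when single libraries were left out. ATMG00020 was at 15832, 19445 and 7915 in vcs-6, against 3233, 5875 and 5354 in WT (log2 change 1.53 ± 0.35, adjusted p = 0.0085), with vcs-6 library 3 nearest to WT. All mitochondria-encoded genes together summed to 29887, 33913 and 14409 in vcs-6, against 6985, 12089 and 11401 in WT. ATMG00020 alone thus held a large part of these reads in every library. The list was not split into messenger and ribosomal RNA, and no rise of mitochondrial mRNA as a class is read from the shares. Organelle transcripts mostly lack poly(A) tails, and the carry-over of such RNA through the mRNA kit was not tested.

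Light signalling changed in both directions. For its genes, 7 of 24 tested members rose and 11 fell (median log2 change -0.19). GLK1, which activates chlorophyll and antenna genes, was at 814, 925 and 1679 in vcs-6, against 5686, 3992 and 6592 in WT (log2 change -2.29 ± 0.29, adjusted p = 0.00051). PAR1, an atypical bHLH repressor of shade responses, was at 58.3, 33.8 and 47.6 in vcs-6, against 1714, 283 and 1683 in WT (log2 change -4.33 ± 0.65, adjusted p = 0.0011), with WT library 5 the lowest of WT. The blue light receptor gene PHOT1 was at 4498, 4249 and 5140 in vcs-6, against 16476, 11799 and 12186 in WT (log2 change -1.53 ± 0.16, adjusted p = 0.00018). CGA1, a GATA factor induced by cytokinin and nitrate that promotes chloroplast development, went the other way at 1112, 1032 and 1097 in vcs-6, against 318, 145 and 321 in WT (log2 change 2.13 ± 0.29, adjusted p = 0.00073). ELIP1, an early light-induced protein of stressed chloroplasts, was at 528, 1182 and 787 in vcs-6, against 18.6, 96.0 and 63.5 in WT (log2 change 3.99 ± 0.57, adjusted p = 0.00087), also without overlap.

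Genes of the leaf surface fell. For the stomatal lineage, 2 of 14 tested members rose and 12 fell (median log2 change -2.51), and among epidermis, cuticle and trichome genes 1 of 19 tested members rose and 11 fell (median log2 change -1.01). Stomatal precursors are set by SPCH, advanced by MUTE and spaced by secreted EPF peptides. SPCH was at 22, 20.12 and 28.2 in vcs-6, against 158, 203 and 235 in WT (log2 change -3.03 ± 0.24, adjusted p = 6.5e-05). EPF2, the spacing peptide of early precursors, was at 5.50, 4.83 and 2.92 in vcs-6, against 42.0, 37.8 and 54.1 in WT (log2 change -3.09 ± 0.35, adjusted p = 0.00028). Every vcs-6 library of both genes lay under every WT library. MYB88, which ends the divisions of guard mother cells, was one of the 2 members that rose, at 2552, 2724 and 3360 in vcs-6, against 343, 391 and 308 in WT (log2 change 3.04 ± 0.15, adjusted p = 1.1e-05). GL1, which starts trichomes, was at 3.30, 2.41 and 3.89 in vcs-6, against 40.1, 50.7 and 51.7 in WT (log2 change -3.54 ± 0.33, adjusted p = 0.00012). TRY, which keeps neighbouring cells from that fate, was at 3.30, 2.41 and 3.89 in vcs-6, against 78.2, 129 and 59.9 in WT (log2 change -4.37 ± 0.37, adjusted p = 9e-05). Both were all but silent in vcs-6. LACS1, an enzyme of cuticular wax synthesis, was at 152.9, 164 and 215 in vcs-6, against 1637, 1509 and 1764 in WT (log2 change -3.21 ± 0.16, adjusted p = 1.2e-05). The layer-specific homeodomain gene ATML1 was at 661, 741 and 740.0 in vcs-6, against 3222, 2408 and 2444 in WT (log2 change -1.90 ± 0.14, adjusted p = 5e-05). In the D153N line the stomatal list had 2 members higher and 0 lower, and the vcs-6 change was lower than the D153N change for 12 of 14 genes; TRY rose there by 1.45.

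**Figure D3:**
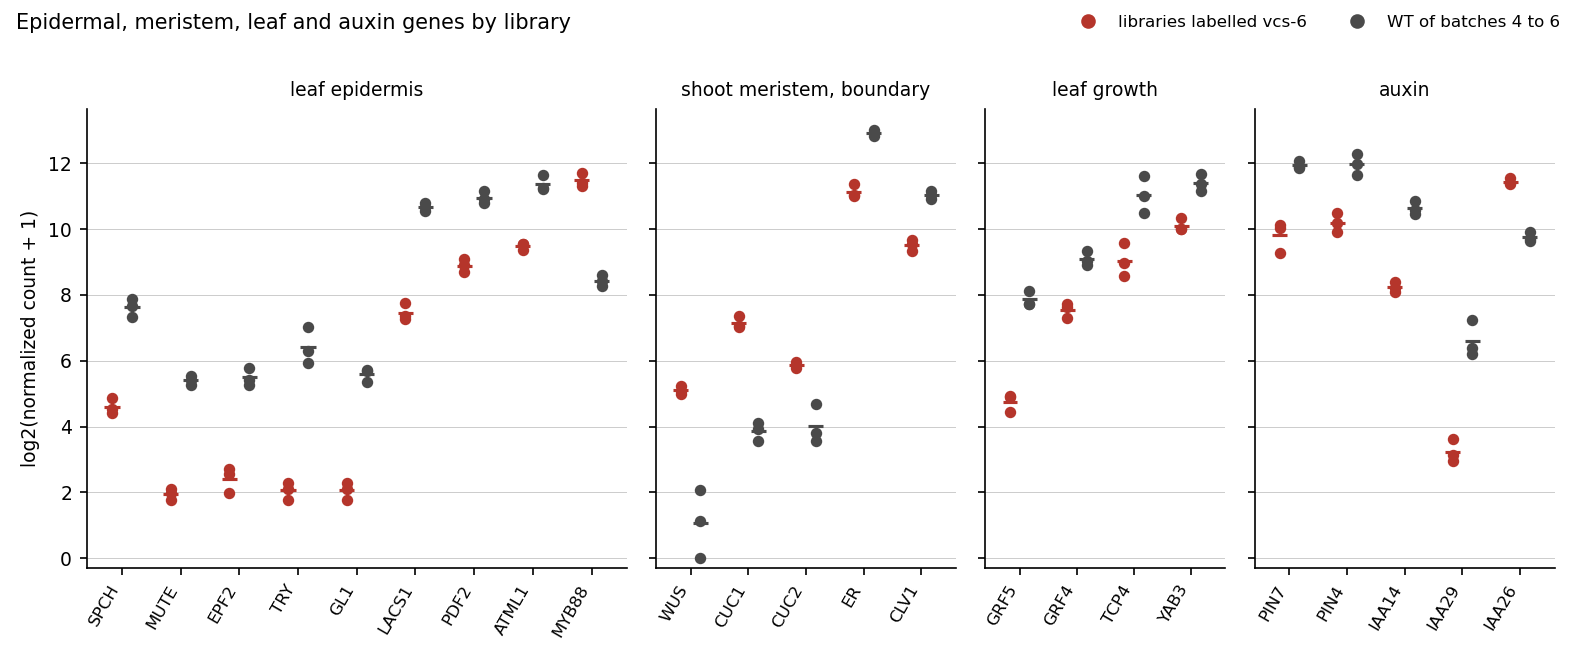
log2 of the normalized count plus 1 for genes of the leaf epidermis, the shoot meristem, leaf growth and auxin, with the vcs-6 libraries left of the WT libraries; each point is a library and each bar the mean of 3. SPCH, GL1, GRF5 and IAA29 lie lower in every vcs-6 library, WUS, CUC1, MYB88 and IAA26 lie higher, and no gene shown has overlapping groups.

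Meristem genes divided. Among genes of the shoot meristem and its boundaries, 10 of 17 tested members rose and 4 fell (median log2 change 0.52); 6 were higher without vcs-6 library 2 or without WT library 4. WUS, the stem cell-promoting homeodomain factor of the organizing centre, was at 33.0, 30.6 and 37.0 in vcs-6, against 0, 3.24 and 1.18 in WT (log2 change 4.04 ± 0.56, adjusted p = 0.00079). CUC1, which marks the boundaries around new organs, was at 129, 133 and 164 in vcs-6, against 10.8, 16.2 and 14.1 in WT (log2 change 3.29 ± 0.25, adjusted p = 5.6e-05). Its relative CUC2 was at 57.2, 53.9 and 61.3 in vcs-6, against 10.8, 12.9 and 24.7 in WT (log2 change 1.85 ± 0.34, adjusted p = 0.0028). No vcs-6 library of these genes reached down to WT. CLV1, a receptor kinase that restricts WUS, was at 646, 745 and 814 in vcs-6, against 2101, 1919 and 2270 in WT (log2 change -1.51 ± 0.12, adjusted p = 7.9e-05). ERECTA (ER), a receptor kinase that promotes organ growth, was at 2080, 2044 and 2646 in vcs-6, against 8232, 7325 and 7775 in WT (log2 change -1.79 ± 0.13, adjusted p = 4.7e-05). The list's changes lay higher than those of the D153N line for 10 genes and lower for 3. The sum of the 4 meristem markers, to which CLV1 gives the most reads, was 1187 to 1397 in vcs-6 and 2212 to 2608 in WT, with STM and WUS higher and CLV1 lower.

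Leaf growth genes fell more often than they rose, and vascular genes rose or did not pass. For leaf polarity and growth, 4 of 28 tested members rose and 14 fell (median log2 change -0.52). GRF5, a growth-regulating factor that prolongs leaf cell division, was at 20.9, 28.98 and 29.2 in vcs-6, against 210.2, 213 and 279.7 in WT (log2 change -3.11 ± 0.22, adjusted p = 4.9e-05). TCP4, which promotes leaf cell differentiation, was at 379, 504 and 757 in vcs-6, against 2073, 1433 and 3118 in WT (log2 change -2.0 ± 0.33, adjusted p = 0.0016), and YAB3, an identity gene of the lower leaf side, was at 1017, 1017 and 1302 in vcs-6, against 2625, 2285 and 3242 in WT (log2 change -1.28 ± 0.16, adjusted p = 0.00049). Genes for growth and for differentiation were thus both among the falls. In vascular tissue, 8 of 23 tested members rose and 0 fell (median log2 change 0.22), with 5 higher without vcs-6 library 2 or 3 or WT library 6. VND7, the switch for xylem vessel formation, was at 352, 572 and 600.0 in vcs-6, against 183, 289 and 135 in WT (log2 change 1.36 ± 0.31, adjusted p = 0.0082). TMO6, a Dof factor of young vascular cells, was at 756, 1133 and 967 in vcs-6, against 419, 427 and 438 in WT (log2 change 1.13 ± 0.16, adjusted p = 0.00078), and SMXL5, needed for phloem formation, at 794, 1107 and 1076 in vcs-6, against 438, 583 and 475 in WT (log2 change 0.99 ± 0.17, adjusted p = 0.0022). Phloem markers did not pass (0 of 3), with sums of 7880 to 13501 in vcs-6 and 10854 to 11902 in WT, and 2 of 5 xylem markers rose.

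Of the auxin transport genes, 1 of 13 tested members rose and 7 fell (median log2 change -0.51); 3 or 4 fell without vcs-6 library 1 or WT library 4 or 6. The efflux carrier gene PIN7 was at 618, 1045 and 1126 in vcs-6, against 4268, 3719 and 3815 in WT (log2 change -2.13 ± 0.22, adjusted p = 0.00019), and PIN4 at 970.1, 1170 and 1429 in vcs-6, against 4067, 3212 and 4955 in WT (log2 change -1.77 ± 0.20, adjusted p = 0.00026). Aux/IAA genes encode repressors that auxin destabilizes and at the same time induces. Of these 3 of 20 tested members rose and 8 fell (median log2 change -0.43). IAA29, which rises in shade in wild-type plants, was at 7.70, 11.3 and 6.81 in vcs-6, against 149, 82.0 and 72.9 in WT (log2 change -3.37 ± 0.35, adjusted p = 0.00021), and IAA14 was at 295, 269.7 and 335 in vcs-6, against 1849, 1519 and 1421 in WT (log2 change -2.40 ± 0.14, adjusted p = 2.4e-05). IAA26 was the exception at 2707, 2993 and 2664 in vcs-6, against 825, 971 and 795 in WT (log2 change 1.69 ± 0.12, adjusted p = 4e-05). The small auxin-up RNAs (SAUR), many of which promote cell expansion, gave 11 rises and 26 falls among 58 tested members (median log2 change -0.94). With a minimum normalized count of 50 only 8 fell and the median was 0.32. SAUR29 was at 5.50, 3.22 and 5.83 in vcs-6, against 284, 57.2 and 148 in WT (log2 change -4.56 ± 0.56, adjusted p = 0.00042), and SAUR28 had no read in vcs-6 and was at 59.6, 17.3 and 27.03 in WT (adjusted p = 0.00027). AT4G22620, also known as SAUR34, rose to 57.2, 62.0 and 80.7 in vcs-6, against 1.96, 8.63 and 0 in WT (log2 change 4.45 ± 0.75, adjusted p = 0.0019).

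Gibberellin and brassinosteroid genes showed more falls than rises. For gibberellin, 6 of 20 tested members rose and 9 fell (median log2 change -0.43). GID1B, a gibberellin receptor, was at 3270, 2992 and 3301 in vcs-6, against 434, 421 and 430.2 in WT (log2 change 2.89 ± 0.10, adjusted p = 6.5e-06), and GA2OX2, an inactivating oxidase, was at 1247, 1008 and 955 in vcs-6, against 130.0, 272 and 152.8 in WT (log2 change 2.59 ± 0.27, adjusted p = 0.0002). GA20OX1, a biosynthetic oxidase, was at 19.8, 16.1 and 10.7 in vcs-6, against 96.8, 65.8 and 101 in WT (log2 change -2.44 ± 0.31, adjusted p = 0.0005), and GA2OX1, another inactivating oxidase, at 8.80, 2.41 and 2.92 in vcs-6, against 94.8, 148 and 82.3 in WT (log2 change -4.38 ± 0.46, adjusted p = 0.00022). The pair of inactivating oxidases thus changed in opposite directions. GASA1, a cysteine-rich peptide gene that gibberellin regulates, was at 20971, 11291 and 8965 in vcs-6, against 1363, 751 and 917 in WT (log2 change 3.71 ± 0.33, adjusted p = 0.00011). Among brassinosteroid genes, 2 of 18 tested members rose and 10 fell (median log2 change -0.52), or 6 lower with the length trend removed. PRE1, a growth-promoting helix-loop-helix protein induced by the hormone, was at 46.2, 32.2 and 43.8 in vcs-6, against 681, 725 and 462 in WT (log2 change -3.89 ± 0.23, adjusted p = 2.4e-05).

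Cytokinin, ethylene and abscisic acid genes were mixed. In the cytokinin list 3 of 19 tested members rose and 6 fell (median log2 change -0.12). CRF6, a cytokinin response factor linked to senescence, was at 530.2, 664 and 554 in vcs-6, against 171, 187 and 173 in WT (log2 change 1.71 ± 0.14, adjusted p = 7.5e-05). For ethylene, 6 of 25 tested members rose and 6 fell (median log2 change 0.04). ERF2, a response factor, was at 114, 99.0 and 86.5 in vcs-6, against 365, 856 and 454 in WT (log2 change -2.38 ± 0.31, adjusted p = 0.00052). Abscisic acid, cold and drought genes gave 10 rises and 4 falls among 29 tested members (median log2 change 0.69), and 17 higher without WT library 5. RD20, a caleosin induced by drought, was at 5860, 5151 and 3463 in vcs-6, against 527, 886 and 475 in WT (log2 change 2.96 ± 0.27, adjusted p = 0.00012), and KIN1 at 1248, 1251 and 1885 in vcs-6, against 143, 271 and 199 in WT (log2 change 2.85 ± 0.26, adjusted p = 0.00011). Both also rose in the D153N line, by 1.69 and 1.72. GOLS2, a galactinol synthase of cold and drought responses, went the other way at 147, 307 and 328 in vcs-6, against 868, 1473 and 920.3 in WT (log2 change -2.10 ± 0.33, adjusted p = 0.0015).

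Defence genes rose in some members and fell in others. Salicylic acid genes gave 6 rises and 6 falls among 21 tested members (28.6% each, median log2 change 0.37). Among all genes 26.7% rose and 24.8% fell. PR5, a thaumatin-like protein, was at 1430, 526 and 2652 in vcs-6, against 64.5, 57.2 and 114 in WT (log2 change 4.05 ± 0.55, adjusted p = 0.00068). ACD6, an ankyrin protein that raises salicylic acid, was at 706, 366 and 832 in vcs-6, against 4392, 4864 and 7726 in WT (log2 change -3.19 ± 0.33, adjusted p = 0.00019). The groups of both genes were apart, on opposite sides. For jasmonate, 5 of 25 tested members rose and 8 fell (median log2 change -1.11); 2 to 6 rose across the alternative settings. JAZ6, a repressor that jasmonate induces, was at 916, 1085 and 815 in vcs-6, against 8599, 9391 and 6981 in WT (log2 change -3.15 ± 0.15, adjusted p = 1.2e-05), and VSP2, an acid phosphatase of the wound branch, was at 7196, 10038 and 14465 in vcs-6, against 48176, 72271 and 67088 in WT (log2 change -2.60 ± 0.27, adjusted p = 0.0002). TAT3, a tyrosine aminotransferase that jasmonate induces, was at 1075, 1202 and 1196 in vcs-6, against 77.2, 82.0 and 28.2 in WT (log2 change 4.33 ± 0.37, adjusted p = 9.4e-05), without overlap.

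WRKY factors, which bind promoters of defence genes, gave 16 rises and 16 falls among 59 tested members (27.1% each, median log2 change 0.02). WRKY45 was at 2155, 1597 and 1640 in vcs-6, against 171, 84.1 and 109 in WT (log2 change 3.92 ± 0.26, adjusted p = 3.5e-05). WRKY70, a positive regulator of salicylic acid responses, was at 1352, 1096 and 1283 in vcs-6, against 9836, 12404 and 11082 in WT (log2 change -3.16 ± 0.13, adjusted p = 8.2e-06). It also fell in the D153N line, by 1.94 (difference adjusted p = 0.11, or adjusted p = 0.017 with the replicate block). Intracellular immune receptors of the NBS-LRR class gave 8 rises and 55 falls among 112 tested members (median log2 change -0.51), and 13 higher without WT library 5. These genes are long: of 97 with transcripts of at least 3000 bases 45 fell (46.4%), against 40.5% of all genes of that length, and 36 fell with the length trend removed. AT4G19050 was at 26.4, 31.4 and 23.3 in vcs-6, against 111, 136 and 102 in WT (log2 change -2.07 ± 0.22, adjusted p = 0.00024). Cysteine-rich receptor-like kinases gave 8 rises (27.6%) and 11 falls (37.9%) among 29 tested members (median log2 change -0.38), and 5 rises with a minimum normalized count of 50. CRK13 was at 355, 246 and 249 in vcs-6, against 16.6, 20.5 and 9.40 in WT (log2 change 4.15 ± 0.31, adjusted p = 5.8e-05), and CRK7 at 124, 51.5 and 117 in vcs-6, against 0.977, 2.16 and 0 in WT (adjusted p = 0.00015), where WT holds at most 2 reads in a library. PDF1.4, a defensin-like gene, was at 4127, 1351 and 1227 in vcs-6, against 24.4, 18.3 and 16.5 in WT (log2 change 6.54 ± 0.44, adjusted p = 3.9e-05). In the camalexin and pattern response list, 2 of 19 tested members rose and 6 fell (median log2 change -0.56), with 2 or 3 lower without vcs-6 library 2 or 3 or WT library 4; PAD3, which makes the phytoalexin camalexin, was at 223, 364 and 496 in vcs-6, against 82.1, 126 and 146 in WT (log2 change 1.57 ± 0.33, adjusted p = 0.0052).

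Small heat shock proteins, which hold denatured proteins in solution, rose without exception: 12 of 12 tested members rose and 0 fell (median log2 change 4.36), against 26.7% higher among all genes. HSP22.0, of the endoplasmic reticulum, was at 1230, 1583 and 1450 in vcs-6, against 5.86, 21.6 and 15.3 in WT (log2 change 6.70 ± 0.40, adjusted p = 2.5e-05). In the D153N line 5 of 11 rose, HSP22.0 by 5.05, and 7 genes of the list rose more in vcs-6 than there (HSP22.0 not among them, difference adjusted p = 0.077). Of heat shock factors and other chaperones, 14 of 27 tested members rose and 3 fell (median log2 change 0.61). Their summed normalized counts went the other way, at 51420 to 66630 in vcs-6 and 78562 to 83879 in WT. HSFA2, the factor that sustains the response, was at 35.2, 39.4 and 18.5 in vcs-6, against 1.96, 4.32 and 2.35 in WT (log2 change 3.03 ± 0.45, adjusted p = 0.001), and APX2, an ascorbate peroxidase and classical HSF target, was at 477, 541 and 476 in vcs-6, against 3.91, 7.55 and 5.88 in WT (log2 change 6.24 ± 0.26, adjusted p = 8.2e-06). Neither HSFA2 nor APX2 reached into the range of WT.

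The heat shock element is built of inverted GAA units, written here as GAANNTTC. In the 250 bases upstream of the annotated start, on both strands, it was found for 3 of 12 small heat shock genes (25%), 8 of 28 heat shock factor and chaperone genes (28.6%; 3 of the 17 called, 17.65%), 9.56% of genes called higher, 8.64% of genes called lower and 9.44% of 37897 windows of the annotation. Windows are shown for the 2 listed genes with the largest rises among those that hold a match and no other gene. Match and rise were both conditions of that choice, and a link between them was not tested. The windows have the match in capitals and are written 5′ to 3′ towards the start of the gene. They are from the TAIR10.1 assembly, chr3:2955906-2956155 on the plus strand for APX2 and chr4:13819972-13820221 on the minus strand for HSP21.
APX2: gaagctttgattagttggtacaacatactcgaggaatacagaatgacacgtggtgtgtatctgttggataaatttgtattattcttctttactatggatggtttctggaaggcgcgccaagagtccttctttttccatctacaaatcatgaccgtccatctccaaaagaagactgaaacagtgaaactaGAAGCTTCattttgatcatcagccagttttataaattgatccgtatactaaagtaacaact
HSP21: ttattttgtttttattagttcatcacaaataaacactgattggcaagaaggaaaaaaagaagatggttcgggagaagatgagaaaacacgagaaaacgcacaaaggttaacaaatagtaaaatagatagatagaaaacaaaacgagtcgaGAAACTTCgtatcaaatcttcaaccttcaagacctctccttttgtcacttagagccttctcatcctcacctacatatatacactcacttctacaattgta
The match begins 61 bases before the start of APX2 and 100 bases before that of HSP21. A match is a stretch of letters, and no binding was measured.

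Phosphate starvation genes rose. In that list, 14 of 24 tested members rose and 2 fell (median log2 change 0.83). RNS1, a ribonuclease that frees phosphate from RNA, was at 2401, 1891 and 1430 in vcs-6, against 37.1, 15.1 and 17.63 in WT (log2 change 6.37 ± 0.34, adjusted p = 1.7e-05). AT4, a noncoding RNA that sequesters miR399, was at 553, 809.8 and 1330 in vcs-6, against 50.8, 96.0 and 98.7 in WT (log2 change 3.41 ± 0.37, adjusted p = 0.00023). Neither gene overlapped with WT. AT4 rose in the D153N line too, by 1.74. The site of PHR1, the factor that switches the response on, is written GNATATNC; windows of 5 of 27 listed genes hold it on either strand (18.5%), against 5.28% of all windows and 5.62% of genes called higher. AT4 (TAIR10.1, chr5:894332-894581, plus strand) and SPX3, a sensor protein gene (chr2:18606160-18606409, plus strand), are shown by the same rule, with the matches in capitals.
AT4: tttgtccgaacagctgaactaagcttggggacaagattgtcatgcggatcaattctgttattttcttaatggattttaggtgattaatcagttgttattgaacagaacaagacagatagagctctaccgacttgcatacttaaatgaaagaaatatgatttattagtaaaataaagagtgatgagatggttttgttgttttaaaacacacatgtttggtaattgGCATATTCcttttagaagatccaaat
SPX3: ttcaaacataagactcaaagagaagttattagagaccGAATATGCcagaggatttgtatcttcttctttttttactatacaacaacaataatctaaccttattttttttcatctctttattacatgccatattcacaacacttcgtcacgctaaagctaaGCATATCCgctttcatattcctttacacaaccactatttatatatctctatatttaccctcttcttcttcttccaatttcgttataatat
AT4 holds 1 match, 26 bases before the start, and SPX3 holds 2. SPX3 itself was at 15.4, 32.2 and 18.5 in vcs-6, against 0.977, 2.16 and 5.88 in WT (log2 change 2.65 ± 0.56, adjusted p = 0.0057).

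Of seed storage and embryo genes, 11 of 17 tested members rose and 1 fell (median log2 change 2.1); 6 were higher among those with a normalized count of at least 50. EM1, a late embryogenesis abundant protein, was at 142, 148 and 246 in vcs-6, against 0.977, 4.32 and 3.53 in WT (log2 change 5.59 ± 0.44, adjusted p = 7e-05). SOM, a zinc-finger regulator of germination in the dark, was at 222, 210.1 and 174 in vcs-6, against 8.80, 20.5 and 16.5 in WT (log2 change 3.71 ± 0.32, adjusted p = 9.2e-05). SESA2, a storage albumin, was at 14.3, 50.7 and 409 in vcs-6, against 0, 2.16 and 1.18 in WT (adjusted p = 0.0059), with at most 2 reads in a WT library and library 3 far above the other vcs-6 libraries. In the D153N line the median of the list was -1.37, with 1 member higher (0 with the replicate block) and 2 lower, and the vcs-6 change was higher for 10 genes. The wider LEA family, which protects dry cells, gave 47 rises and 2 falls among 73 tested members (median log2 change 1.25). AT2G23110, of group 6, was at 383, 295 and 234 in vcs-6, against 9.77, 11.9 and 11.8 in WT (log2 change 4.63 ± 0.24, adjusted p = 1.5e-05). Many are short. Of 26 members under 1000 bases 21 rose (80.8%), and of all genes of that length 40.4% rose. With the length trend removed 41 members of the family rose and 4 fell (median 0.91). The part of length in these rises was not tested.

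The G-box CACGTG, bound by basic leucine zipper factors of abscisic acid and seed programmes among others, was in the window of 9 of 24 seed genes (37.5%) and 5 of 30 abscisic acid genes (16.7%), against 5.39% of all windows, 7.36% of genes called higher and 7.52% of genes called lower. EM6, a relative of EM1 (TAIR10.1, chr2:16780369-16780618, minus strand), and SESA2 (chr4:13609091-13609340, plus strand) are shown with the match in capitals.
EM6: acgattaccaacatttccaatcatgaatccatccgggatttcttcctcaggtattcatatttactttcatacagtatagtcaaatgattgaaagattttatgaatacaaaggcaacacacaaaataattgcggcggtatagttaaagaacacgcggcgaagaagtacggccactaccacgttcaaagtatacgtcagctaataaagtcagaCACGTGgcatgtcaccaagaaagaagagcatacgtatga
SESA2: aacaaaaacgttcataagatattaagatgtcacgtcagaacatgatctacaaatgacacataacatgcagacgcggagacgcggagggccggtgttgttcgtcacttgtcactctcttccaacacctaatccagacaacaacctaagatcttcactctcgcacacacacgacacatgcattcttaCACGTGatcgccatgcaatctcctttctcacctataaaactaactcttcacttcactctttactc
The match lies 39 bases before the start of EM6 and 65 bases before that of SESA2. EM6 was at 41.8, 50.7 and 89.5 in vcs-6, against 9.77, 9.71 and 9.40 in WT (log2 change 2.46 ± 0.34, adjusted p = 0.00074).

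Nutrient and redox genes changed in specific members. Nitrate genes gave 3 rises and 6 falls among 20 tested members (median log2 change 0.10); 6 rose without WT library 4 or with the length trend removed. NRT2.1, the high-affinity root uptake transporter, was at 5.50, 12.9 and 10.7 in vcs-6, against 34.2, 143 and 350.3 in WT (log2 change -3.58 ± 0.77, adjusted p = 0.006), and NRT1.7, which loads nitrate into the phloem of old leaves, was at 11517, 19994 and 18062 in vcs-6, against 2161, 2496 and 3725 in WT (log2 change 2.56 ± 0.26, adjusted p = 0.00018). For iron, 4 of 23 tested members rose and 2 fell (median log2 change 0.22); without vcs-6 library 1 these were 9 and 4, and without WT library 4 the median was -0.14. FIT, the root regulator of iron uptake, was at 81.4, 60.4 and 88.5 in vcs-6, against 155, 193 and 324 in WT (log2 change -1.48 ± 0.29, adjusted p = 0.0042), and its target reductase FRO2 at 114, 439.5 and 431 in vcs-6, against 765, 1372 and 1963 in WT (log2 change -2.19 ± 0.55, adjusted p = 0.012). OPT3, which carries iron signals in the phloem, was at 12534, 26683 and 22917 in vcs-6, against 5887, 6637 and 7557 in WT (log2 change 1.57 ± 0.27, adjusted p = 0.0021). The uptake genes named were thus lower, and the phloem transporters higher, in vcs-6 as a group. Within vcs-6, library 1 was the lowest for FRO2, OPT3 and NRT1.7 alike. Copper and reactive oxygen genes gave 11 rises and 4 falls among 21 tested members (median log2 change 0.50). CSD2, the chloroplast copper/zinc superoxide dismutase whose mRNA is a target of miR398, was at 2638, 1462 and 2247 in vcs-6, against 349.9, 491 and 779 in WT (log2 change 2.0 ± 0.32, adjusted p = 0.0014), and DHAR1, a dehydroascorbate reductase, was at 139552, 178031 and 169489 in vcs-6, against 26293, 31114 and 27348 in WT (log2 change 2.52 ± 0.16, adjusted p = 3.3e-05).

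The unfolded protein response list gave 16 rises and 0 falls among 22 tested members (median log2 change 0.65), against 26.7% of all genes. BIP3, the stress-inducible chaperone of the endoplasmic reticulum, was at 179, 92.6 and 277 in vcs-6, against 12.7, 25.9 and 35.3 in WT (log2 change 2.82 ± 0.48, adjusted p = 0.002), and NAC103, a factor of the same response, was at 246, 389 and 277 in vcs-6, against 43.0, 125 and 58.8 in WT (log2 change 2.11 ± 0.38, adjusted p = 0.0027). Both groups of libraries were apart for these genes. For mitochondrial stress, 5 of 13 tested members rose and 1 fell (median log2 change 0.31), and the other 7 did not pass. Summed normalized counts of the list were 10102, 10955 and 7565 in vcs-6, against 6424, 22213 and 6166 in WT, with WT library 5 the highest. Its median ran from 0.07 to 1.04 across the alternative settings. AOX1C, an alternative oxidase, was at 44.0, 56.3 and 77.8 in vcs-6, against 4.89, 6.47 and 9.40 in WT (log2 change 2.93 ± 0.35, adjusted p = 0.00039). Sugar starvation and senescence genes gave 12 rises and 4 falls among 29 tested members (median log2 change 0.54). SAG13, a senescence-associated dehydrogenase, was at 2773, 1814 and 871 in vcs-6, against 26.4, 7.55 and 21.2 in WT (log2 change 6.56 ± 0.53, adjusted p = 7.6e-05), and ORE1, a NAC factor that drives leaf senescence, was at 1636, 684 and 639 in vcs-6, against 228, 124 and 152 in WT (log2 change 2.45 ± 0.38, adjusted p = 0.0013). Library 1 was the highest of vcs-6 for both. Neither senescence gene was called in the D153N line.

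The clock, flowering and glucosinolate lists held more falls than rises, and the flavonoid list more rises. For the circadian clock, 3 of 25 tested members rose and 11 fell (median log2 change -0.29). LHY, a morning repressor, was at 297, 234 and 273 in vcs-6, against 77.2, 25.9 and 31.7 in WT (log2 change 2.71 ± 0.38, adjusted p = 0.00082), and PRR7, a daytime repressor of LHY, was at 2995, 2491 and 3183 in vcs-6, against 8097, 6083 and 6340 in WT (log2 change -1.24 ± 0.15, adjusted p = 0.00039). CHE, a TCP factor of the clock, was at 387, 411 and 498 in vcs-6, against 2746, 2147 and 2419 in WT (log2 change -2.50 ± 0.14, adjusted p = 2e-05). The hour of harvest was not among the labels, and its part in these changes was not tested. For flowering, 7 of 26 tested members rose and 11 fell (median log2 change -0.08). FUL, a MADS-box gene of the meristem that makes flowers, was at 6.60, 3.22 and 7.78 in vcs-6, against 37.1, 49.6 and 63.5 in WT (log2 change -2.93 ± 0.39, adjusted p = 0.00065). Flower markers summed to 170 to 199 in vcs-6 and 62.3 to 77.2 in WT, with 2 of 4 higher. Glucosinolate genes gave 2 rises and 12 falls among 24 tested members (median log2 change -0.61). The myrosinase gene TGG2, active in guard cells and phloem cells, was at 1034, 685 and 954 in vcs-6, against 29281, 30520 and 36985 in WT (log2 change -5.19 ± 0.17, adjusted p = 6.5e-06), and TGG1, of the same pair of enzymes, at 16403, 19467 and 16628 in vcs-6, against 88904, 94994 and 94788 in WT (log2 change -2.41 ± 0.13, adjusted p = 1.9e-05). MYB34, a regulator of the indolic branch, was at 1870, 2737 and 2355 in vcs-6, against 812, 972 and 819 in WT (log2 change 1.41 ± 0.16, adjusted p = 0.00028). For flavonoids, 8 of 26 tested members rose and 5 fell (median log2 change -0.10), with 5 higher without vcs-6 library 2 or 3 or WT library 4. C4H, an early step shared with lignin, was at 15442, 15474 and 14790 in vcs-6, against 4935, 4992 and 4064 in WT (log2 change 1.71 ± 0.12, adjusted p = 3.9e-05).

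Genes of cell division and of the response to DNA damage changed in part. The mitosis list gave 13 rises and 2 falls among 33 tested members (median log2 change 0.37), or 20 rises with all 6 WT libraries as control. In the DNA replication list 2 of 28 tested members rose and 5 fell (median log2 change -0.21); 3 fell under several alternatives. CYCB1;3, a mitotic cyclin, was at 521, 827 and 817 in vcs-6, against 177, 238 and 264 in WT (log2 change 1.66 ± 0.23, adjusted p = 0.00074). The helicase subunit gene MCM6 was at 118, 214 and 198 in vcs-6, against 333, 366 and 306 in WT (log2 change -0.96 ± 0.24, adjusted p = 0.011). In the D153N line 13 mitosis genes rose and 0 fell, while 6 replication genes rose, and 6 replication genes changed lower in vcs-6 than there. In the DNA damage response, 8 of 21 tested members rose and 4 fell (median log2 change 0.36). ANAC044, which holds the cycle before mitosis after damage, was at 482, 727 and 598 in vcs-6, against 25.4, 71.2 and 90.5 in WT (log2 change 3.41 ± 0.44, adjusted p = 0.00051), and its relative ANAC085 at 38.5, 51.5 and 48.6 in vcs-6, against 1.96, 2.16 and 3.53 in WT (log2 change 3.75 ± 0.35, adjusted p = 0.00012). The cyclin-dependent kinase inhibitor gene SMR7 was at 108, 136 and 145 in vcs-6, against 35.2, 21.6 and 35.3 in WT (log2 change 2.07 ± 0.26, adjusted p = 0.00049), without overlap. The E2F site TTTCCCGC was in the window of 9 of 28 replication genes (32.1%), against 0.562% of all windows and 0.602% of genes tested. AACGGNNA, the core of mitotic MYB sites, was in 11 of 33 mitosis genes (33.3%), against 8.01% of all windows and 8.32% of genes tested. Both strands were counted.

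Cytosolic ribosomal protein genes gave 135 rises and 1 fall among 199 tested members (median log2 change 0.57), and 139 of 199 rose and 0 fell in the D153N line (median 0.62); 15 changed higher and 16 lower in vcs-6 than there. AT3G04230 was at 2818, 2451 and 2583 in vcs-6, against 576, 567 and 742 in WT (log2 change 2.07 ± 0.13, adjusted p = 3.3e-05), and AT2G19740, of the L31e family, was at 9381, 7411 and 10750 in vcs-6, against 1944, 2170 and 2573 in WT (log2 change 2.03 ± 0.17, adjusted p = 7.9e-05). Such transcripts are short, and of 122 under 1000 bases 85 rose (69.7%) against 40.4% of all genes of that length. With the length trend removed 82 rose and 10 fell (median 0.28). The site II motif TGGGCC was in the window of 113 of 210 of these genes (53.8%) against 11.4% of all windows, and the telo-box AAACCCTA in 45 (21.4%) against 4.75%, counting both strands. In ribosome biogenesis, 4 of 15 tested members rose and 4 fell (median log2 change 0.04). NUC-L2, the second nucleolin gene, was at 300.3, 304 and 300.5 in vcs-6, against 33.2, 47.5 and 42.3 in WT (log2 change 2.86 ± 0.19, adjusted p = 3.3e-05). Proteasome subunits gave 20 rises and 1 fall among 38 tested members (median log2 change 0.35). PBC1, a beta subunit of the core, was at 6933, 6019 and 6097 in vcs-6, against 3149, 3090 and 3181 in WT (log2 change 1.01 ± 0.10, adjusted p = 0.00016). F-box genes, which choose targets for ubiquitin ligases, gave 88 rises and 22 falls among 210 tested members (median log2 change 0.37). Of the family 371 genes had values, and a gene silent in WT could be tested through its vcs-6 level alone. The count of rises ran from 59 to 126 across the alternative settings. AT5G44940 was at 168, 138 and 124 in vcs-6, against 0, 1.08 and 0 in WT (adjusted p = 2.4e-05), and AT1G78760 at 119, 122 and 107 in vcs-6, against 0, 5.39 and 1.18 in WT (log2 change 5.60 ± 0.63, adjusted p = 0.00028). Histone genes gave 3 rises and 8 falls among 40 tested members (median log2 change -0.18), or 1 higher and 18 lower with the length trend removed. HIS4, a histone H4 gene, was at 51.7, 53.9 and 76.8 in vcs-6, against 126, 96.0 and 139 in WT (log2 change -0.98 ± 0.24, adjusted p = 0.011), with a change of 1.29 in the D153N line (adjusted p = 0.031, or adjusted p = 0.064 with the replicate block; difference adjusted p = 0.0015).

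Cell wall and detoxification families shifted member by member. Expansins and xyloglucan enzymes, which loosen and remodel walls, gave 24 rises and 9 falls among 57 tested members (median log2 change 0.67). XTH24 was at 102512, 42801 and 31050 in vcs-6, against 4752, 3599 and 2904 in WT (log2 change 3.81 ± 0.41, adjusted p = 0.00024). EXPA8 was at 203, 211 and 211 in vcs-6, against 4841, 3597 and 3359 in WT (log2 change -4.21 ± 0.15, adjusted p = 6.5e-06), and EXPA5 at 61.6, 103 and 205 in vcs-6, against 1087, 770.3 and 1161 in WT (log2 change -3.17 ± 0.40, adjusted p = 0.00048), a gene that rose in the D153N line by 1.07 (difference adjusted p = 0.00014). The 2 expansins that fell lay far under every WT library. Class III peroxidases gave 24 rises and 9 falls among 59 tested members (median log2 change 0.38), or 3 lower without vcs-6 library 2. PRX52, linked to lignin of vessels, was at 2023, 1566 and 2078 in vcs-6, against 49.9, 30.2 and 22.3 in WT (log2 change 5.81 ± 0.28, adjusted p = 1.2e-05). AT5G58390 went down to 106, 127 and 388 in vcs-6, against 959, 1176 and 1363 in WT (log2 change -2.73 ± 0.45, adjusted p = 0.0017). Glutathione S-transferases gave 25 rises and 8 falls among 52 tested members (median log2 change 0.51). GSTU11 was at 168, 129 and 107 in vcs-6, against 2.93, 11.9 and 9.40 in WT (log2 change 4.05 ± 0.46, adjusted p = 0.0003). Lipid-transfer genes, with AT4G22505 of the cluster above among them, gave 27 rises and 19 falls among 66 tested members (median log2 change 0.26). AP2/ERF factors gave 24 rises and 32 falls among 104 tested members (median log2 change -0.25). ERF53, a heat and drought factor, was at 194, 277 and 333 in vcs-6, against 10.8, 20.5 and 9.40 in WT (log2 change 4.25 ± 0.34, adjusted p = 7.3e-05), with a rise of 3.59 in the D153N line (difference adjusted p = 0.53). AT5G07310, also known as ERF115 and linked to stem cell replenishment, was at 80.3, 159 and 152.7 in vcs-6, against 1.96, 1.08 and 3.53 in WT (log2 change 5.38 ± 0.42, adjusted p = 6.8e-05), while the wax regulator SHN3 was at 0, 2.41 and 1.94 in vcs-6, against 30.3, 78.8 and 79.9 in WT (log2 change -4.76 ± 0.61, adjusted p = 0.00052). Pentatricopeptide repeat genes, which process organelle RNA, gave 20 rises and 41 falls among 251 tested members (median log2 change -0.03), and 7 to 12 higher when any of 5 libraries was left out. AT1G19720 was at 238, 203 and 277 in vcs-6, against 1048, 655 and 665 in WT (log2 change -1.69 ± 0.21, adjusted p = 0.00049).

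**Figure D4:**
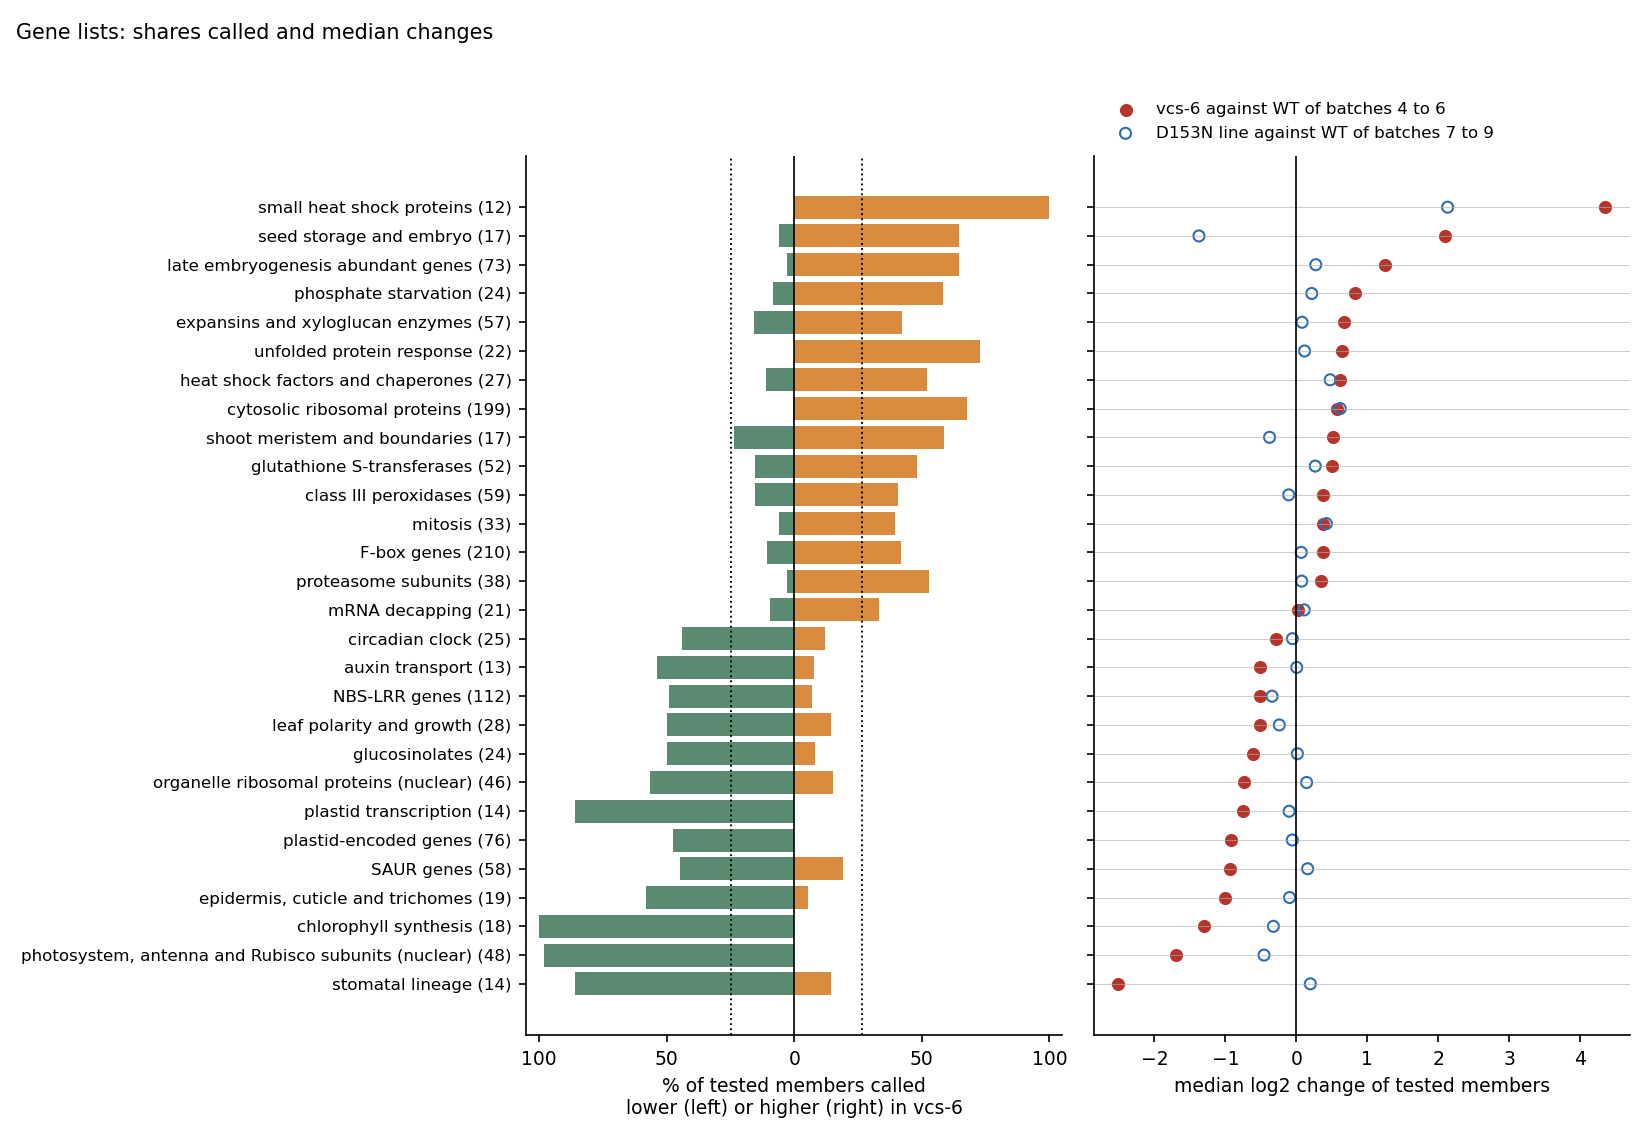
Gene lists with the number of members tested in parentheses. Left, the percent of tested members called lower (green) and higher (orange) in vcs-6, with dotted lines at 24.8% and 26.7%, the shares of all genes; right, the median log2 change of the same lists in vcs-6 (filled) and in the D153N line (open), each against its own WT. Stomatal, photosystem and chlorophyll genes lie at the low end in vcs-6, small heat shock proteins at the high end in both lines, and cytosolic ribosomal proteins at 0.57 in vcs-6 and 0.62 in the D153N line.

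Root genes gave 7 rises and 5 falls among 33 tested members (median log2 change 0.18), or 4 rises and 9 falls with all 6 WT libraries as control. PRP1, a wall protein of root hairs, was at 1248, 627 and 943 in vcs-6, against 377, 219 and 205 in WT (log2 change 1.81 ± 0.31, adjusted p = 0.002), and JKD, which sets the pattern of the ground tissue, was at 255.2, 234 and 300.5 in vcs-6, against 926, 827 and 983 in WT (log2 change -1.79 ± 0.14, adjusted p = 6.4e-05). WOX5, of the root organizing centre, was at 38.5, 33.8 and 31.1 in vcs-6, against 9.77, 11.9 and 19.98 in WT (log2 change 1.31 ± 0.33, adjusted p = 0.013). In all, 21 of the 33 did not pass.

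The direction of change went with transcript length. Of 3203 genes with transcripts under 1000 bases 40.4% rose and 16.0% fell in vcs-6, with a median of 0.39, and of 2373 genes of at least 3000 bases 10.7% rose and 40.5% fell, with a median of -0.30. The bins between had medians of 0.11 (1000 to under 2000 bases, 10431 genes) and -0.14 (2000 to under 3000 bases, 5243 genes). The difference between the shortest and longest bin was 0.94, 0.57 and 0.61 in vcs-6 libraries 1, 2 and 3 against the mean of WT, and -0.22, 0.10 and 0.12 in WT libraries 4, 5 and 6 against the other 2. In the D153N line it was 0.62, 0.69 and 0.56, against 0.09, -0.01 and -0.08 in its WT. Both lines thus show the trend in every library and more steeply than any WT library. Genes called higher had a median transcript of 1438 bases and 3 exons, genes called lower 1950 bases and 5 exons, and all genes tested 1711 bases and 4 exons; median GC content was 41.2%, 41.4% and 41.3% in the same order. RNA integrity was not among the labels, and the part of RNA quality or library preparation in the trend was not tested. Once the length trend was taken out of every library, 5359 genes were higher and 5134 lower, and 9298 genes kept their call and direction.

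**Figure D5:**
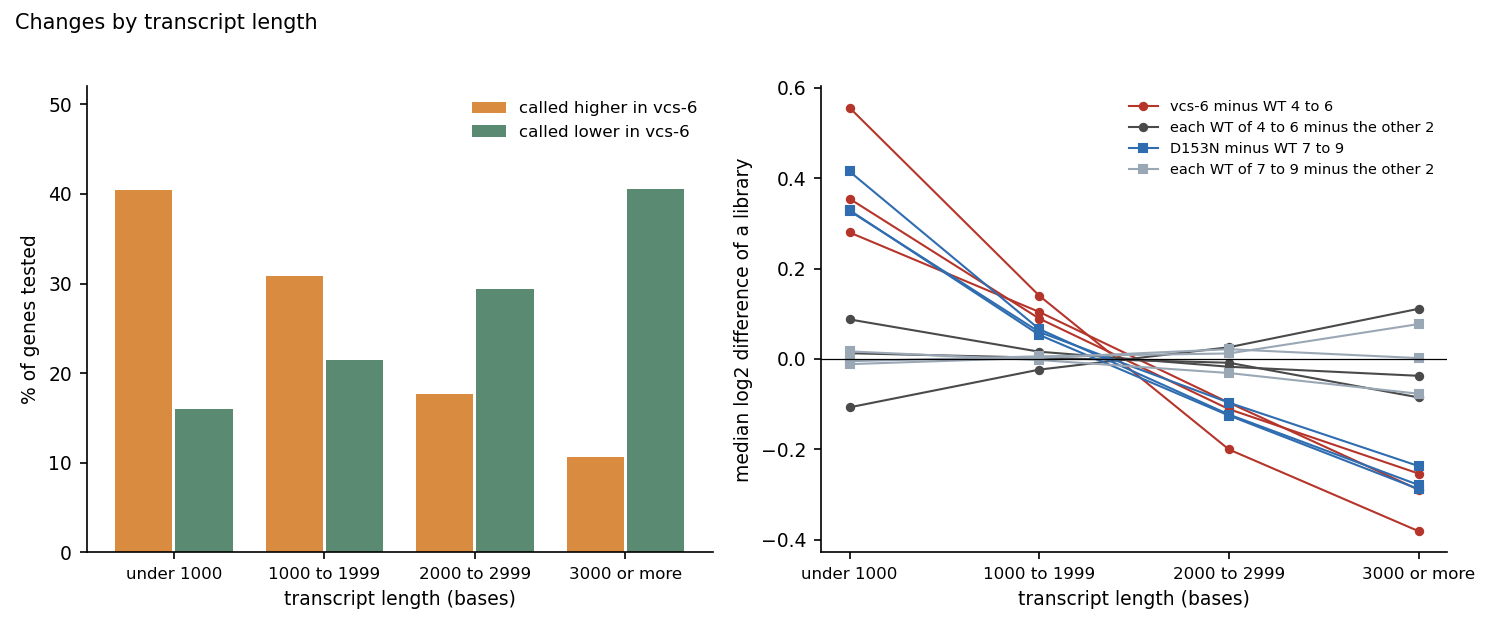
Left, the percent of genes tested that were called higher (orange) and lower (green) in vcs-6 by transcript length in bases; right, the median log2 difference of each library by the same bins, for vcs-6 and D153N libraries against the mean of their own WT and for WT libraries against the mean of the other 2. Vcs-6 and D153N libraries slope from above 0.2 under 1000 bases to below -0.2 at 3000 bases or more, while WT libraries stay within 0.12 of 0.

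In the authors' deposited table, 12666 of 24433 genes with an adjusted p passed for vcs against WT (51.8%), 6544 higher (26.8%) and 6122 lower (25.1%). Of 21302 genes tested in both, 10758 were called in the same direction here and in the authors' deposited table and 0 in opposite directions. A further 226 were called here only and 1364 in the authors' deposited table only. For VCS the log2 change in the authors' deposited table was 0.61 (adjusted p = 1.5e-07), for PORA -5.50 and for PNP-A 7.10.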

How the data were processed

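mRNA of whole 14-day seedlings was extracted with TRIZOL and made into libraries with a kit named Lexogen SENSE mRNA-Seq, as biological triplicates, per the labels. HISAT2 2.1.0, HTSeq, bcl2fastq 2.17.1.14 and the TAIR10 build are named in the submitters' processing notes. The deposited signal values are read counts per gene divided by a DESeq2 size factor, and the deposited log2 fold changes and adjusted p-values are the authors' DESeq2 1.24.0 results, per the file headers. All values were whole multiples of 1 read in their library (100% within 1e-06), so reads were recovered. Of the per-sample columns, 12 were not used. Of 27782 gene rows, 27122 held values for these libraries.

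Genes that reached a normalized count of 10 in 3 or more libraries were tested on log2(value + 1) with limma 3.58.1 (R 4.3.3), two-sided, moderated with a trend on mean level, 3 libraries against 3, and p-values were adjusted by Benjamini-Hochberg across the tested genes. A gene could thus be tested through its level in 1 group alone. The difference from the D153N line came from 1 limma model over 12 libraries. The labels give D153N and its WT the same batch numbers, 7 to 9. Deviations from the group means correlated by 0.229, 0.0713 and 0.136 between the libraries of a shared number. Between libraries of different numbers they correlated by -0.328 to 0.169, so the ranges overlap and a pairing by number is not established. A fit with that number as a replicate block was added after seeing the data. edgeR 4.0.16 and DESeq2 1.42.0 were run on the recovered reads as alternatives, beside other scalings, pseudocounts, filters, control sets, left-out libraries and removal of a lowess trend on transcript length. The limma test was also run on simulated counts with the same dispersion for every gene and 200 changed genes. That setting had far fewer changed genes than these data, no outlying library and no length trend. It cannot show how the test behaves here. Where a group holds at most 3 reads in all, no fold is given.

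The gene lists, the comparison itself and the length alternative were chosen with earlier results of these data known. Named genes are VCS, VCR, DNE1 and the decapping list, the 15 largest rises and 15 largest falls with separate groups, and the 10 most abundant genes with a log2 change of at least 1. Up to 6 members of each list were added, the largest called changes first. Only a part of all these genes is described. EM6 and SPX3 were named for their upstream windows. Genes that share over 20% of their 31-base words with other transcripts, or overlap another gene, were avoided or are called uncertain. Windows of 250 bases upstream of annotated starts, lengths and product names are from RefSeq for TAIR10.1; windows are printed for the 2 list members per motif with the largest rise, an adjusted p under 0.01 and no other gene in the window. Python 3.11.15 was used for counts and figures.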

Additional observations from a re-analysis of the deposited data

How the results depend on the processing

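In vcs-6 against WT every total count of called genes stayed within 1.5 times the main count, from 9155 to 12772, and no gene called in the main test was called in the opposite direction. The edgeR quasi-likelihood test called 5758 higher and 5201 lower, DESeq2 5720 and 5445, and leaving out single libraries 4815 to 5423 higher and 4275 to 4924 lower. Scaling by library size alone moved the median of all genes to 0.118 on the log2 scale and gave 6496 higher and 4280 lower, so small changes of either sign are relative to the scaling. Of 392 called named genes, 356 stayed called under all 17 alternatives and none reversed.

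The D153N side values moved more. Their total of 3365 ran from 756 without WT library 9 to 4139 without D153N library 13, with 641 to 2084 higher and 115 to 2055 lower, and was 1638 with the length trend removed, 1044 higher and 594 lower. With the batch number as a replicate block, an alternative chosen after seeing the data, it was 2125, 1365 higher and 760 lower. The count of genes that differ between the lines ran from 5319 to 6659 when single libraries were left out, and was 6137 with the replicate block for the D153N pair. For vcs-6 against WT no paired analysis was possible, because the deposited vcs-6 columns cannot be tied to batch numbers. The fit for that comparison was unpaired, as planned. Of the gene lists, the median change of the exosome and surveillance, small RNA, cytokinin, touch and wound, nitrate, iron, flowering, flavonoid, ribosome biogenesis, root, SAUR, WRKY and pentatricopeptide repeat genes took the other sign under at least 1 alternative. Nothing beyond the labels shows whether replicates are separate cultures or plates, and p-values measure the spread between these libraries. With 3 libraries in each group single outlying libraries could not be tested.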

Other observations

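Some classes of transcripts outside the lists differed in their shares. Of 109 tested genes annotated as noncoding RNA 39.4% rose and 17.43% fell in vcs-6, and of 130 tested pseudogenes 36.9% rose and 18.5% fell, against 26.7% and 24.8% of all genes. Of 298 long noncoding RNA genes 22.1% rose and 20.13% fell. Genes with 1 exon rose in 29.5% and fell in 19.4% of cases, and genes with at least 10 exons rose in 15.3% and fell in 34.7%; exon number goes with transcript length, and their parts were not separated. On the 5 nuclear chromosomes 26.3% to 27.1% of genes were higher and 23.52% to 25.7% lower.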
